A study of Mus musculus with 6 samples.

Results

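The miR-106b~25 cluster is a set of 3 microRNA hairpins, Mir106b, Mir93 and Mir25, that lie in the same intron of Mcm7. Its 6 mature miRNAs, both arms of each hairpin, were taken by name from a table of 1907 distinct mature miRNAs, and all 6 were present. The table came from small RNA sequencing of normal liver from C57BL/6N mice aged 12 weeks that were fed a chow diet, 3 females and 3 males; the labels name no genotype, treatment or injury. The study concerns liver injury that depends on sex, and here female was compared with male liver before any injury. The labels call the animals littermates, and each library counted as 1 animal. By the numbers in their titles all males come before all females, so an effect of that order and sex cannot be told apart.

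Mcm7 encodes a subunit of the helicase that unwinds DNA at replication forks, and its transcription rises in dividing cells under E2F factors. A hairpin is cut from the intron by Drosha and then by Dicer into a short duplex, and usually one arm of that duplex is kept in Argonaute as the guide while the other is degraded. The kept arm pairs with messenger RNAs mainly through its seed, bases 2 to 8. miR-93-5p and miR-106b-5p carry the seed of miR-17 and miR-20a and are known to repress the cell cycle inhibitor p21 (Cdkn1a) and E2F1. miR-25-3p carries the seed of miR-92a and is known to repress the pro-apoptotic protein Bim (Bcl2l11). In liver the cluster is known mostly from hepatocellular carcinoma, where it is often raised. Normal adult liver has few dividing hepatocytes.

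The hairpins are shown first because the results turn on which arm of each was counted. They are written 5′ to 3′ from RefSeq (GRCm38.p6), with the mature 5p arm and then the mature 3p arm in capitals.
Mir106b: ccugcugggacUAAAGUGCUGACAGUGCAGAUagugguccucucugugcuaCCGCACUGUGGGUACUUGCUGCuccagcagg
Mir93: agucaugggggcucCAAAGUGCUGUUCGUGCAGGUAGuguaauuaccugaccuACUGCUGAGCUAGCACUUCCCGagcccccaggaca
Mir25: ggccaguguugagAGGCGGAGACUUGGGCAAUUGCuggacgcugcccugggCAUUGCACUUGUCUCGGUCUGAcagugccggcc
On the minus strand of mm10, Mir106b lies at chr5:138165737-138165818, Mir93 at chr5:138165523-138165610 and Mir25 at chr5:138165321-138165404. Along the strand Mir106b comes first, Mir93 follows after 126 bases and Mir25 after a further 118, so that the cluster spans 498 bases. All 3 hairpins fall in intron 13 (chr5:138165162-138165909) of the 15-exon transcript Mcm7-201 in GENCODE M21. Mir93 and Mir25, but not Mir106b, also overlap exon 1 of Mcm7-202, a short transcript annotated as a retained intron. The minimum free energy predicted by RNAfold was -41.0 kcal/mol for Mir106b, -46.3 for Mir93 and -35.9 for Mir25.

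The seeds are shown next, in capitals, because they place the members beside miRNAs from other loci. The 2 members with the miR-17 seed and their relatives are as follows.
miR-93-5p: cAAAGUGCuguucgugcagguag
miR-106b-5p: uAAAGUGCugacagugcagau
miR-17-5p: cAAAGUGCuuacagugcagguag
miR-20a-5p: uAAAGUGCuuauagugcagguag
miR-106a-5p: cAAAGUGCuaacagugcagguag
miR-20b-5p: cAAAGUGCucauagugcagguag
miR-25-3p shares its seed with 3 others that were counted at a testable level.
miR-25-3p: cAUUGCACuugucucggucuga
miR-92a-3p: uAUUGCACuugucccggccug
miR-92b-3p: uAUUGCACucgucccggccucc
miR-32-5p: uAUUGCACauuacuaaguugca
The other 3 arms of the cluster have seeds of their own.
miR-106b-3p: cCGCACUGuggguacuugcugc
miR-93-3p: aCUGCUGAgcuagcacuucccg
miR-25-5p: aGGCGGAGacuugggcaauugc
Aligned at base 1 without gaps, miR-106b-5p differed from miR-17-5p at 3 of 21 bases (U1C, G10U and A20G, with the base of miR-106b-5p first and positions counted from its 5′ end) and from miR-93-5p at 5. miR-93-5p differed from every other miRNA of its seed group above by at least 3 bases. miR-25-3p differed from miR-92a-3p at 3 of 21 bases. All 36 counts of the members were whole numbers, so none showed a read divided between miRNAs. The labels do not say what was done with a read matching more than 1 miRNA.

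Libraries held 3285249 to 16444674 counts, a 5.01-fold range with the highest total in male replicate 3. Along the first principal component, with 51.3% of the variance, the 2 sexes fell apart, and male replicate 2 was the most distant library. The hepatocyte miRNA miR-122-5p ranked 1st of all miRNAs, and the 3 muscle markers summed to no more than 34.6 CPM (counts scaled to a library of 1000000, with library sizes adjusted by TMM, a scaling that centres most miRNAs). Of the 5 hepatocyte markers 4 had a log2 fold change of female over male above 0 and 1 passed the threshold in edgeR, and of the 5 biliary markers 0 had one above 0 and 0 passed, beside 178 above 0 and 25 passing among all 370 tested miRNAs. The hepatocyte marker that passed was miR-802-5p, with a mean of 503 CPM in females against 103 in males. Its log2 fold change was 2.29 (edgeR adjusted p 1.06e-04), the highest of all tested miRNAs. The sums of the hepatocyte markers did not overlap, at 370700 to 374504 CPM in females against 396928 to 440474 in males. Most of each sum was miR-122-5p, with a mean of 315840 CPM in females and 364079 in males. The 1 hepatocyte marker with a log2 fold change below 0, miR-122-5p, was higher in every male library (-0.21, edgeR adjusted p 0.053). Of the 5 leukocyte markers, 5 had a log2 fold change above 0 and 1 passed, but 0 in limma-voom, with sums of 4039 to 4593 CPM in females against 2899 to 4453 in males. The leukocyte marker that passed was miR-223-3p, with a log2 fold change of 0.62 (edgeR adjusted p 0.047). Of the 4 erythroid markers 4 had one above 0 and 0 passed. Of the 2 endothelial markers 1 had one above 0 and 0 passed, and the sums of both these lists overlapped between the sexes. Of the 5 stromal markers 5 had one below 0 and 0 passed, with sums of 8918 to 11440 against 12112 to 12799 CPM. The part of other cells in the levels below was not tested, and in whole liver fewer cells of a type and less RNA per cell cannot be told apart.

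The cluster was counted almost wholly as 2 miRNAs, miR-93-5p and miR-25-3p, which together with the other 4 arms made up 0.404 to 0.530% of all counts. miR-93-5p made up 50.4 to 57.9% of the cluster's counts in a library and miR-25-3p 40.9 to 48.5%. The whole Mir106b hairpin, first along the transcript, gave 0.898 to 1.30%. By mean level miR-93-5p ranked 34th and miR-25-3p 37th of the 1907 miRNAs, miR-106b-3p 164th, miR-106b-5p 259th, miR-93-3p 320th and miR-25-5p 450th. That order held within every library for all 6 members.

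**Figure D1:**
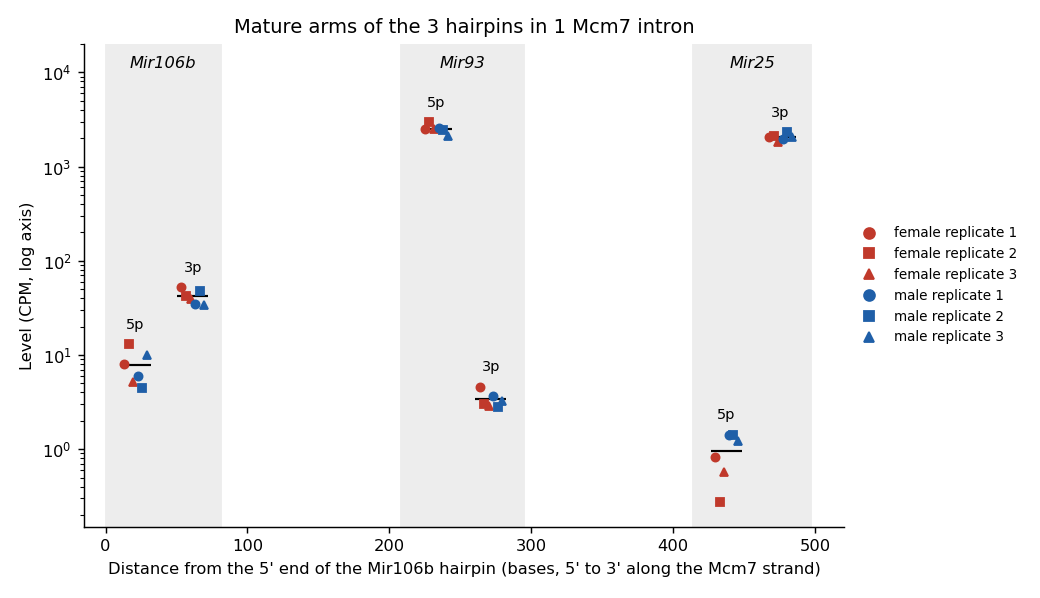
Level of each mature arm (CPM, log axis) against its distance in bases from the 5′ end of the Mir106b hairpin; grey bands are hairpins, points are the 6 libraries and black lines are means over all 6. The 5p arm of Mir93 and the 3p arm of Mir25 sit at 1831 CPM or more in every library and all other arms at 52.2 CPM or less.

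miR-93-5p is the arm of Mir93 with the miR-17 seed. Its level was 2512, 2980.4 and 2475 CPM in female replicates 1, 2 and 3, and 2553, 2449 and 2128 CPM in the male replicates. Female replicate 2 was the highest and male replicate 3 the lowest library, and the sexes overlapped, because male replicate 1 lay above female replicates 1 and 3. Females had a mean of 2656 ± 282 CPM, males one of 2377 ± 222 CPM (SD, n = 3 each). In edgeR's quasi-likelihood test, with p adjusted by Benjamini-Hochberg over all tested miRNAs, the log2 fold change of female over male was 0.16 with a standard error (SE) of 0.12 and an adjusted p of 0.555. Its other arm, miR-93-3p, had 28, 11 and 10 counts in females and 23, 12 and 51 in males. That is 4.62, 3.04 and 2.85 CPM against 3.64, 2.83 and 3.24 CPM, with overlapping groups and the highest value in female replicate 1. The fitted log2 fold change, 0.15 (SE 0.31; edgeR adjusted p 0.842), was -0.16 without female replicate 1.

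miR-25-3p is the arm of Mir25 with the miR-92a seed. It stood at 2041, 2106 and 1831 CPM in females and at 1949, 2337 and 2047 CPM in males. Male replicate 2 was the highest and female replicate 3 the lowest library, with the others close together and the sexes overlapping. Females had a mean of 1993 ± 144 CPM, males one of 2111 ± 202 CPM (SD, n = 3 each), and the log2 fold change of -0.08 (SE 0.12; edgeR adjusted p 0.786) became 0.06 with no TMM factor. Over the 6 libraries its coefficient of variation was 8.26%, the smallest of the 6 members, beside 10.9% for miR-93-5p.

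miR-25-5p, the other arm of Mir25, was the rarest member, with 5, 1 and 2 counts in females and 9, 6 and 19 in males. In CPM these were 0.826, 0.277 and 0.570 against 1.42, 1.42 and 1.21, so every male library lay above every female library. It was too low to pass the filter on counts and was not tested by the model. Of the 370 miRNAs that were tested, 21.6% also had groups that did not overlap. Summed over each sex and divided by summed TMM-adjusted library sizes, 8 female and 34 male counts gave a female to male ratio of 0.470, with a 95% exact interval of 0.188 to 1.03 that covers counting error only and includes equality.

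In the Mir106b hairpin, unlike the other two, the arm with the seed of a known family was the rarer one in the counts: the 3p arm was counted more often than the 5p arm that carries the miR-17 seed. miR-106b-5p is within 3 mismatches of miR-17-5p, miR-20a-5p and miR-106a-5p, and whether some of its reads were assigned to these relatives or discarded was not tested. miR-106b-3p stood at 52.2, 42.4 and 39.6 CPM in females and at 34.8, 47.7 and 33.9 CPM in males. Female replicate 1 was highest and 2 of the 3 male libraries were lowest, but male replicate 2 lay above female replicates 2 and 3. Females had a mean of 44.7 ± 6.61 CPM, males one of 38.8 ± 7.71 CPM (SD, n = 3 each), with a log2 fold change of 0.22 (SE 0.22; edgeR adjusted p 0.694). For miR-106b-5p the counts were 48, 47 and 18 in females and 38, 19 and 157 in males. This is 7.93, 13.0 and 5.13 CPM against 6.02, 4.49 and 9.97 CPM. The highest value was in female replicate 2 and the next in male replicate 3, and the sexes overlapped. Its coefficient of variation over the 6 libraries was 42.0%, with a log2 fold change of 0.27 (SE 0.37; edgeR adjusted p 0.784), or -0.11 without female replicate 2.

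None of the 5 tested members passed the threshold (adjusted p of 0.05) in the edgeR quasi-likelihood test, none had an unadjusted p under 0.05, and none passed in DESeq2 or limma-voom. Over all tested miRNAs, 6.76% passed in edgeR (25 of 370, with 67 at an unadjusted p under 0.05). In DESeq2 31 of the 370 passed and in limma-voom 17. None of the 5 tested members had groups that did not overlap, beside 80 of the 370 tested miRNAs. The median log2 fold change of the 5 members was 0.16, beside -0.01 for all tested miRNAs. With 3 animals a sex, a p above the threshold does not show that the sexes were equal.

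**Figure D2:**
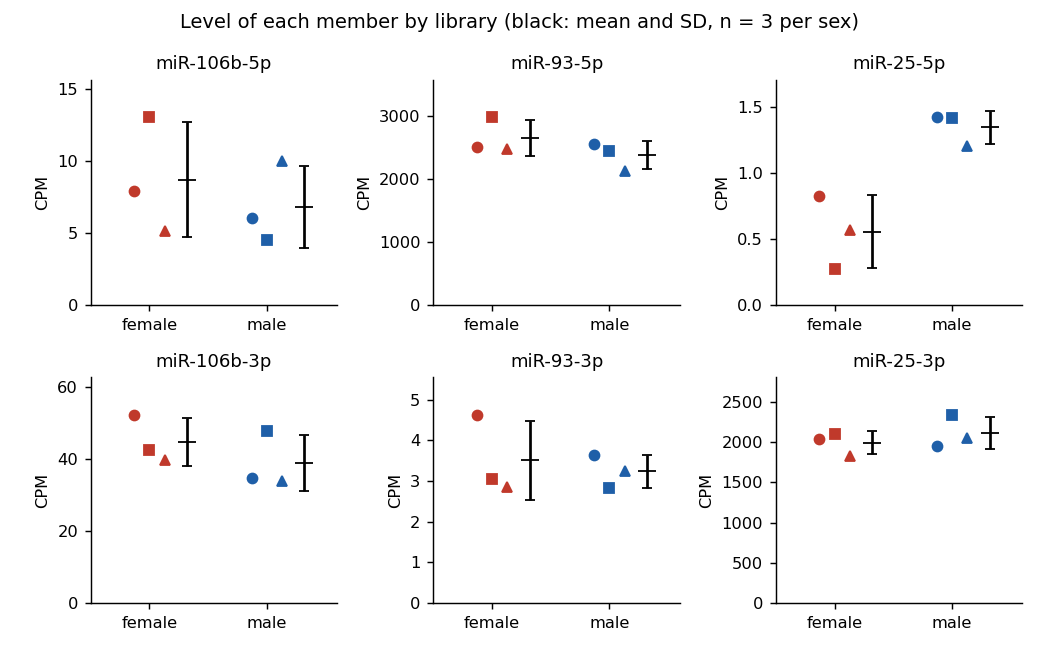
CPM of each member in the 3 female (red) and 3 male (blue) libraries, with circles, squares and triangles for replicates 1, 2 and 3, mean and SD in black, and axes from 0. Groups overlap for every member except miR-25-5p, which rests on 1 to 19 counts a library.

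Summed over the 6 members, the cluster stood at 4618, 5145 and 4354 CPM in females and at 4548, 4842 and 4223 CPM in males, a mean of 4706 ± 403 against 4538 ± 310 (SD, n = 3 each). The groups overlapped, and the log2 difference of 0.05 had an exact two-sided permutation p of 0.6, where 0.1 is the smallest that 3 animals against 3 allow. Before TMM adjustment the cluster took 0.486, 0.530 and 0.465% of the counts in females and 0.447, 0.444 and 0.404% in males, which do not overlap. The log2 difference was then 0.19, while leaving out the TMM factor moved the median log2 fold change of all tested miRNAs by 0.14. With upper-quartile factors the log2 difference of the sum was -0.042, and with RLE factors it was 0.044. How many of all miRNAs did not overlap before TMM adjustment was not counted.

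Ratios within a library do not depend on how libraries are scaled, but they compare counts of different sequences, which a library can capture unequally. miR-93-3p made up 0.102 to 0.184% of the counts of its hairpin in a library, so the 5p arm was counted 543 to 979 times as often. miR-25-5p made up 0.0131 to 0.0730% of its hairpin's counts, and miR-25-3p was counted 1368 to 7608 times as often. In the Mir106b hairpin the 3p arm made up 86.8, 76.5 and 88.5% in the female libraries and 85.3, 91.4 and 77.3% in the male libraries. The exact 95% intervals of female replicate 2 (70.0 to 82.2%) and male replicate 2 (86.9 to 94.7%) did not overlap, while each sex held both a high and a low library. miR-106b-3p was counted 3.26 to 10.6 times as often as miR-106b-5p.

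The arm ratios of Mir106b and Mir93 overlapped between the sexes. For miR-106b-5p over miR-106b-3p the mean log2 ratio was -2.44 ± 0.65 in females and -2.55 ± 0.81 in males (SD, n = 3 each; exact permutation p = 0.9, adjusted p = 1.0 over the 6 ratios tested), a difference of 0.11 that ran from -0.30 to 0.51 when a library was left out. For miR-93-5p over miR-93-3p it was 9.54 ± 0.43 in females and 9.49 ± 0.18 in males (exact permutation p = 1.0, adjusted p = 1.0). The log2 ratio of miR-25-3p over miR-25-5p was 11.13, 12.31 and 11.33 in females and 10.34, 10.57 and 10.69 in males, with 0.5 added to each count. All 3 female values lay above all 3 male values, with a difference of 1.06 (exact permutation p = 0.1, the smallest possible, adjusted p = 0.6). With 5 added to each count the difference was 0.15, so its size depended on how the few counts of miR-25-5p were treated.

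Between hairpins, the 2 abundant arms stayed close to each other, and the Mir106b arms were counted far less often. miR-93-5p was counted 1.23, 1.42 and 1.35 times as often as miR-25-3p in the female libraries, and 1.31, 1.05 and 1.04 times as often in the male libraries. Male replicates 2 and 3 had the lowest ratios, and male replicate 1 lay within the female range. The mean log2 ratio was 0.41 ± 0.10 in females and 0.17 ± 0.19 in males (SD, n = 3 each), a difference of 0.24 (exact permutation p = 0.2, adjusted p = 0.6). miR-93-5p was counted 48.1 to 73.3 times as often as miR-106b-3p, the more abundant arm of Mir106b, and 213 to 546 times as often as miR-106b-5p. The log2 ratio of miR-106b-5p differed between the sexes by 0.41 to miR-25-3p (exact permutation p = 0.5) and by 0.17 to miR-93-5p (exact permutation p = 0.8), with an adjusted p of 1.0 for both. Leaving out 1 library moved these differences to between 0.08 and 0.74 and to between -0.11 and 0.55.

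**Figure D3:**
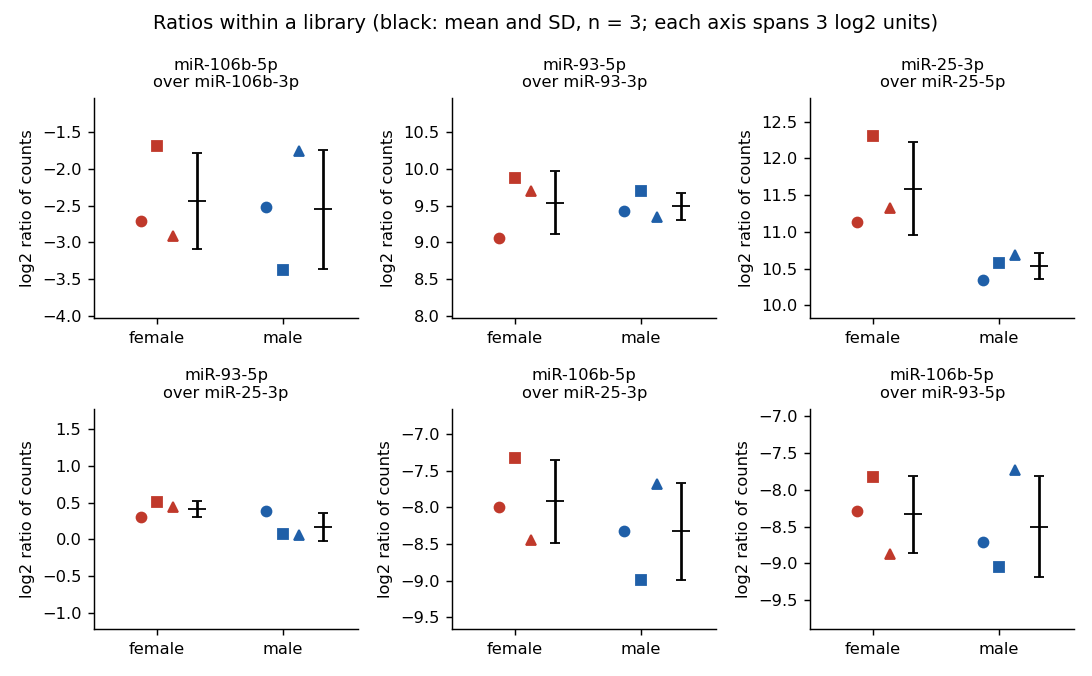
Log2 ratios of counts within each library, the arms of each hairpin above and the hairpins against each other below, for females (red) and males (blue), with circles, squares and triangles for replicates 1, 2 and 3, mean and SD in black, and 3 log2 units on each axis. The sexes separate only for miR-25-3p over miR-25-5p, and miR-93-5p over miR-25-3p lies between 0.06 and 0.50 in all libraries.

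The cluster supplied most of the counts of both seed groups. miR-93-5p and miR-106b-5p held 82.1, 80.3 and 80.5% of the counts with the miR-17 seed in females, and 76.8, 86.6 and 77.2% in males. Almost all of this was miR-93-5p, since miR-106b-5p held 0.158 to 0.360%. miR-20a-5p held 12.1 to 21.5%, miR-17-5p 1.03 to 3.56%, miR-106a-5p 0.200 to 0.556% and miR-20b-5p 0.117 to 0.275%. The mean share of the 2 members was 81.0 ± 0.944% in females and 80.2 ± 5.53% in males (SD, n = 3 each; exact permutation p = 1.0), and the difference of 0.768 percentage points ran from -0.948 to 3.96 when a library was left out. Male libraries lay both above and below all the female ones, with male replicate 2 the highest.

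miR-25-3p held 89.1, 88.7 and 88.4% of the counts with its seed in females, and 89.9, 89.8 and 90.4% in males. Every male library lay above every female library, with means of 88.7 ± 0.356% in females and 90.0 ± 0.279% in males (SD, n = 3 each). The difference of -1.31 percentage points had an exact permutation p of 0.1, the smallest possible, and an adjusted p of 0.2 over the 2 shares. The rest of the group was miR-32-5p at 3.07 to 5.95%, miR-92a-3p at 3.23 to 4.31%, miR-92b-3p at 1.91 to 2.78% and miR-363-3p at 0.00561 to 0.0466%. miR-367-3p was not counted in any library. The share of miR-32-5p was higher in every female library (5.13, 5.93 and 5.95%) than in any male library (4.72, 3.07 and 3.98%).

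**Figure D4:**
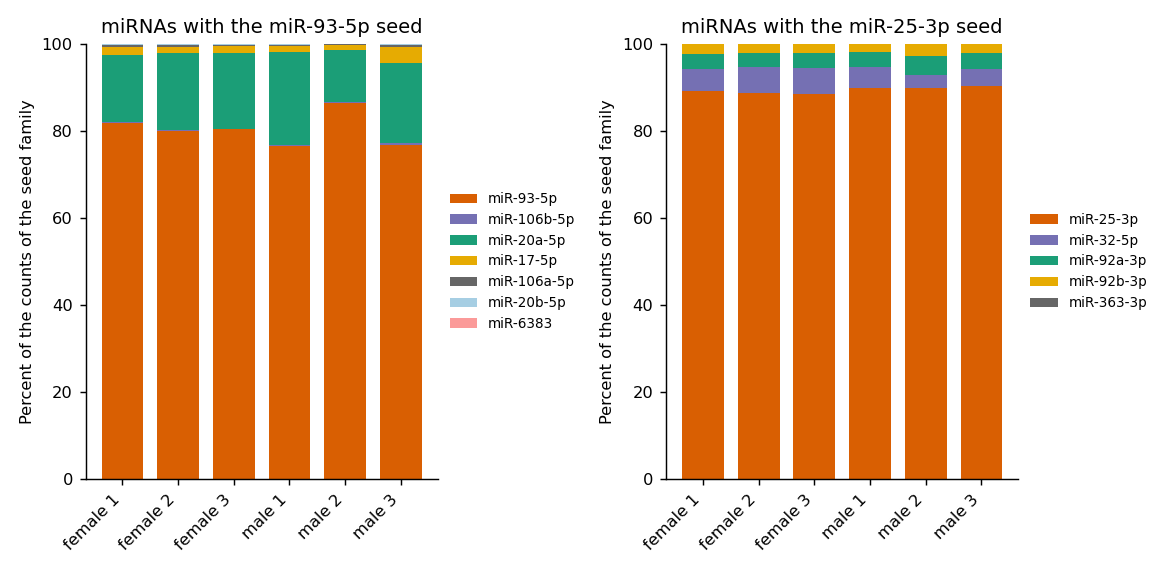
Percent of the counts of each seed group held by each miRNA in each library, for the seed of miR-93-5p (left) and of miR-25-3p (right). miR-93-5p fills 76.6 to 86.4% of the left bars and miR-25-3p 88.4 to 90.4% of the right bars.

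The relatives of the cluster were read from a list of 28 miRNAs: the miR-17 cluster of chromosome 14, the miR-106a cluster of the X chromosome, both paralogs of miR-106b~25, and both arms of the miR-92b, miR-32 and miR-367 hairpins. In these hairpins miR-92b-3p, miR-32-5p and miR-367-3p carry the seed of miR-25-3p, and the opposite arms have other seeds. Of the 28, 12 were tested and 0 passed in either direction in edgeR, DESeq2 or limma-voom, with 1 at an unadjusted p under 0.05 in edgeR. Groups did not overlap for 2 of the 12. Over all 370 tested miRNAs, 25 passed in edgeR, 31 in DESeq2 and 17 in limma-voom. Of the 370, 67 had an unadjusted p under 0.05 in edgeR and 80 had groups that did not overlap. The median log2 fold change of the 12 relatives was 0.0031, with 6 positive and 6 negative values from -0.29 to 0.51. The value with an unadjusted p under 0.05 was that of miR-32-5p, from a locus on chromosome 4, at 117, 141 and 123 CPM in females against 102, 79.8 and 90.1 CPM in males, which do not overlap. It had a log2 fold change of 0.48 (SE 0.17; edgeR adjusted p 0.132). miR-20b-5p was the other with groups apart, at 6.94, 10.2 and 7.98 CPM against 6.81, 3.31 and 6.67 CPM (log2 fold change 0.51, SE 0.31; edgeR adjusted p 0.434).

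Each abundant member was counted more often than its paralog. The ratio of miR-93-5p to miR-20a-5p was 5.31, 4.55 and 4.62 in females and 3.57, 7.16 and 4.18 in males, so the lowest and the highest value were both male. miR-20a-5p itself stood at 473, 655 and 535 CPM in females and at 716, 342 and 509 CPM in males, so its highest library was farther above its lowest, as a fold, than that of miR-93-5p. The ratio of miR-25-3p to miR-92a-3p was 20.8 in male replicate 2 and 24.9 to 27.5 in the other libraries. For the first hairpin of each cluster the order was turned round: miR-17-5p was counted 4.28 to 9.89 times as often as miR-106b-5p. miR-17-5p was also the more abundant arm of its own hairpin, 1.13 to 4.75 times its 3p arm, where miR-106b-5p was the rarer one.

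Of the other tested members of the miR-17 cluster, miR-19b-3p had a mean of 1357 CPM, miR-92a-3p 82.9, miR-19a-3p 74.1, miR-17-5p 55.3, miR-17-3p 23.2, miR-18a-5p 10.3 and miR-92a-1-5p 6.17 CPM. miR-19b-3p and miR-92a-3p are also encoded in the miR-106a cluster, and the table gives each a single row. In this second cluster miR-106a-5p had a mean of 10.7 CPM and miR-20b-5p 6.99 CPM, and its 8 other listed miRNAs were too low to be tested. miR-106a-5p differs from miR-17-5p at 1 base (U10A, with the base of miR-17-5p first), and reads could be shared between them. Both were highest in male replicate 3, at 15.4 and 98.6 CPM, the library with the second highest level of miR-106b-5p. miR-92b-3p, on chromosome 3, had a mean of 50.9 CPM.

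**Figure D5:**
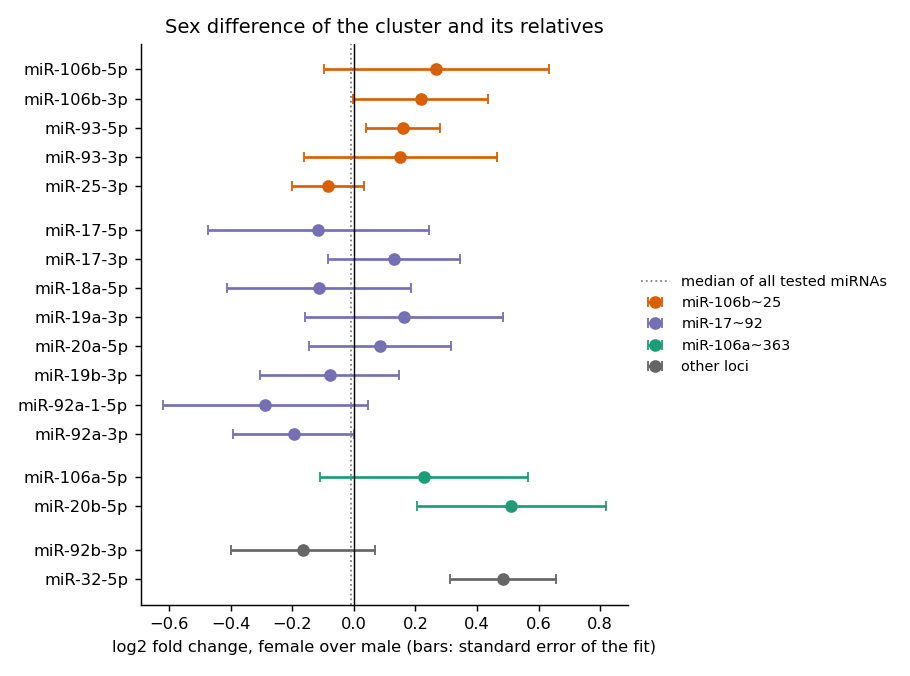
Log2 fold change of female over male with its standard error from edgeR for the 5 tested members (orange) and the 12 tested relatives, with the median of all tested miRNAs as a dotted line. No value passed the adjusted threshold; members run from -0.08 for miR-25-3p to 0.27 for miR-106b-5p, and the sign of miR-25-3p turns with no TMM factor.

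Log2 fold changes in the miR-17 cluster were 0.13 for miR-17-3p, 0.16 for miR-19a-3p, 0.08 for miR-20a-5p, -0.08 for miR-19b-3p, -0.11 for miR-18a-5p, -0.12 for miR-17-5p, -0.20 for miR-92a-3p and -0.29 for miR-92a-1-5p. miR-106a-5p had 0.23 and miR-92b-3p -0.16. The sign of miR-17-5p, miR-18a-5p and miR-19b-3p turned with no TMM factor and that of miR-20a-5p with upper-quartile factors. Leaving out a library also turned the sign of 8 of the 12 relatives, all but miR-17-3p, miR-92a-1-5p, miR-20b-5p and miR-32-5p. Without male replicate 3, in which it was highest, miR-17-5p stood at 0.55.

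As a second case of miRNAs in an intron of a gene of dividing cells, the miR-15b and miR-16-2 hairpins of Smc4, which encodes a condensin subunit, were set beside the cluster. miR-15b-5p stood at 207 to 292 CPM, miR-15b-3p at 20.3 to 24.4 CPM and miR-16-2-3p at 16.3 to 23.6 CPM. None of the 3 passed the threshold in edgeR, DESeq2 or limma-voom, where 25, 31 and 17 of all 370 tested miRNAs did. None of the 3 had an unadjusted p under 0.05 in edgeR, where 67 of the 370 did.

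Over the 6 libraries, the pattern of each abundant member was compared with every other tested miRNA by the root mean square difference of profiles of log2(CPM + 0.5), each centred on its own mean. The 3 closest to miR-93-5p were miR-103-3p (0.091), miR-126a-5p (0.094) and miR-532-5p (0.099), where the median over all tested miRNAs outside the cluster was 0.295. The 3 closest to miR-25-3p were miR-378c (0.059), miR-30d-5p (0.061) and miR-30e-3p (0.069), with a median of 0.281. The 2 members differed from each other by 0.173, so that 43 miRNAs outside the cluster lay closer to miR-93-5p than miR-25-3p did, and 79 lay closer to miR-25-3p than miR-93-5p did. This measure favours abundant miRNAs with little spread, and it describes these 6 libraries only.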

How the data were processed

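The authors deposited 1 table of estimated counts of reads per mature miRNA, not normalised. They used Partek, Bowtie and mm10, per the submitters' processing notes, which give no version, and a library kit for miRNA from Qiagen, per the labels. Neither states trimming or the use of molecular identifiers. Libraries of this kind capture some sequences better than others, so the order of 2 miRNAs is an order of counts. Exact repeats (138 of 2045 rows) were dropped and counts rounded, and 98.9% of values were whole with no tolerance. All deposited values of miR-122-5p, from 1110000 in female replicate 3 to 5690000 in male replicate 3, appeared rounded. The library totals are therefore not exact to the unit. A count of 1 stood for 0.0608 to 0.304 CPM of the unadjusted total, and intervals cover counting error only. No 2 libraries agreed within sampling noise (chi-square per degree of freedom of at least 29.4).

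Sex was compared with edgeR 4.0.16 (R 4.3.3): quasi-likelihood test with the robust option, TMM, filterByExpr by group (minimum count 10, minimum total 15), no covariate, and Benjamini-Hochberg adjustment over 370 miRNAs at 0.05. The standard error is the log2 fold change over the root of the F statistic. The fit was tested on simulated data. It called 22 of 30 miRNAs given a log2 change of 1, 19 of 20 given 2 and 3 of 322 given 0. No log2 change between 0 and 1 was simulated, so changes the size of those of the members were not covered. Ratios, shares and sums were compared by exact two-sided permutation (scipy 1.17.1), with 0.5 added to counts in ratios. Ratios were set up with miR-106b-5p as the leading arm, which the counts did not bear out. Replicates were numbered in accession order and pair no animals.

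Sequences are from RefSeq (GRCm38.p6), matched by name for 6 of 6 members, 26 of 28 listed relatives and 1623 of 1907 miRNAs; seed groups hold matched miRNAs only. Deposited positions of all 6 members matched RefSeq if the stop is taken as 1 base past the end. Folding used RNAfold 2.7.2. Named were the members, the tested relatives, the Smc4 miRNAs, the listed markers past the threshold and the 3 closest profiles to miR-93-5p and to miR-25-3p. Members and lists were chosen with earlier results of these data known. Alternatives were other scaling factors, filters, DESeq2 1.42.0, limma-voom 3.58.1, the fit without the robust option, another pseudocount and leaving out each library.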

Additional observations from a re-analysis of the deposited data

How the results depend on the processing

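No member and no listed relative passed in any of the 15 fits. Of 234 values for the 17 tested members and relatives, 215 kept their sign and side, 0 gained the threshold and 19 changed sign, the cause of which was not tested. With no TMM factor these were miR-25-3p 0.059, miR-17-5p 0.018, miR-18a-5p 0.016 and miR-19b-3p 0.048; with upper-quartile factors it was miR-20a-5p at -0.023. When a library was left out, log2 fold changes ran from -0.11 (without female replicate 2) to 0.70 for miR-106b-5p and from -0.16 (without female replicate 1) to 0.28 for miR-93-3p. Among the relatives they ran from -0.42 to 0.55 for miR-17-5p, -0.36 to 0.052 for miR-18a-5p, -0.14 to 0.51 for miR-19a-3p, -0.31 to 0.16 for miR-19b-3p, -0.14 to 0.35 for miR-20a-5p, -0.33 to 0.010 for miR-92a-3p, -0.34 to 0.098 for miR-92b-3p and -0.00062 to 0.79 for miR-106a-5p. The count over all miRNAs, 25, was 13 with a minimum count of 50, where fewer were tested, and 9 to 32 without a library (9 without female replicate 2, 10 without female replicate 3, 12 without male replicate 3). The difference in the log2 ratio of miR-25-3p to miR-25-5p, 1.06, became 0.15 with a pseudocount of 5 and 0.70 to 1.28 without a library. The cluster sum, 0.05, became 0.19 with no TMM factor, -0.042 with upper-quartile factors, 0.044 with RLE factors, and -0.024 to 0.11 without a library. Without a library, sex differences of log2 ratios ran from -0.30 to 0.51 for miR-106b-5p to miR-106b-3p, -0.11 to 0.29 for miR-93-5p to miR-93-3p, 0.08 to 0.74 for miR-106b-5p to miR-25-3p, -0.11 to 0.55 for miR-106b-5p to miR-93-5p and 0.18 to 0.35 for miR-93-5p to miR-25-3p. The share of the miR-17 seed group ran from -0.948 to 3.96 percentage points, and the share of miR-25-3p in its seed group from -1.50 to -1.15 percentage points. No paired analysis was possible because the replicate numbers follow accession order and pair no animals. With 1 to 19 counts a library, miR-25-5p was too low to pass the filter on counts of the main fit.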
